A study of Homo sapiens with 9 samples.

Results

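The thioredoxin system of HK-2 cells was described through 10 genes in RNA sequencing data from cells given PM2.5, the fine fraction of airborne particles, with or without lactoferrin. The genes were given as a list of names: the thioredoxins TXN and TXN2, the thioredoxin reductases TXNRD1 and TXNRD2, sulfiredoxin SRXN1, the peroxiredoxins PRDX1, PRDX4 and PRDX6, the thioredoxin inhibitor TXNIP and its relative ARRDC4. Each symbol matched 1 of the 58884 Ensembl gene identifiers in the data. All 10 were among the 14454 genes tested, which had at least 0.5 FPKM (fragments assigned to a gene, scaled by its exon length and by the depth of the library) in at least 3 libraries. The lowest value of any of the 10 genes was 0.340 FPKM, for SRXN1 in control replicate 3.

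Thioredoxins are small proteins that reduce disulfide bonds in other proteins through a pair of cysteines in their active site. Thioredoxin reductases are selenoproteins that return oxidised thioredoxin to its reduced form with electrons from NADPH, and peroxiredoxins use reduced thioredoxin to destroy peroxides. TXNIP is an alpha-arrestin that binds reduced thioredoxin, blocks it, and also promotes the removal of glucose transporters from the cell surface. Genes of the reducing side, such as TXNRD1 and SRXN1, are textbook targets of NRF2, the transcription factor of the oxidative stress response. TXNIP and ARRDC4 are textbook targets of the glucose-sensing factor MondoA with its partner MLX. The proximal tubule of the kidney, the origin of the cell line, consumes much oxygen and is a common site of oxidative injury.

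HK-2 is an established cell line of immortalized proximal tubule epithelium from a human kidney, and all groups were the same line, grown in serum-free keratinocyte medium with bovine pituitary extract and EGF. The 3 groups held 3 libraries each: control cells, which the labels call untreated and the protocol says received vehicle, cells given PM2.5 for 24 h, and cells given lactoferrin for 6 h and then PM2.5 for 18 h. Time in PM2.5 therefore differed between the exposed groups, and there was no group with lactoferrin alone. The series text gives 1 mg/ml for PM2.5 and 40 mg/ml for lactoferrin, an iron-binding milk protein, and both concentrations are quoted as written there. The labels do not say whether replicates were separate cultures, so the p-values rest on a spread between samples that may be technical only.

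The libraries held 15313451 to 18820465 assigned reads or fragments, as rebuilt from the FPKM values, and between 5.79% and 9.33% of them were mitochondrial. On principal components, lactoferrin replicate 1 stood apart on the second (13.7% of the variance) and control replicate 3 on the third (8.78%). Of 7 epithelial markers, KRT8, KRT18, KRT19, EPCAM and CDH2 were above 1 FPKM in every library and CDH1 was under 0.5 in every library. Of 15 markers of renal lineage and proximal tubule, PAX8 and MME were above 1 FPKM in every library, whereas 11 were under 0.5 in all, including LRP2, CUBN and AQP1, and SLC22A6 was listed at 0. The summed level of this list was 82.3 to 87.0 FPKM in control, 97.9 to 104 with PM2.5 and 82.8 to 95.7 with lactoferrin plus PM2.5, and that of the epithelial list 394 to 420, 326 to 333 and 321 to 394. Of 10 fibroblast and endothelial markers 7 were under 0.5 FPKM in every library, and the list summed to 48.1 to 54.4, 66.2 to 68.1 and 50.8 to 55.1 FPKM, with LUM the one gene above 1 throughout. LUM rose from 43.0 ± 2.37 FPKM in control to 64.9 ± 0.882 with PM2.5, and COL1A1 of the same list fell from 6.77 ± 1.04 to 1.42 ± 0.0853 FPKM (SD, n = 3 each; log2 fold change -1.94 ± 0.13, adjusted p = 1.20e-05, limma). Of 8 immune markers 6 were under 0.5 FPKM in every library, and the sums were 1.30 to 2.34, 1.24 to 2.11 and 1.45 to 2.12 FPKM. The part of these differences in the results was not tested.

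Of the 10 genes, 2 rose with PM2.5 against control (TXNRD1 and SRXN1) and 2 fell (TXNIP and ARRDC4) by limma, with Benjamini-Hochberg adjustment over all genes tested and a threshold of 0.05. Among all genes tested 35.6% passed, 20.0% higher and 15.6% lower, so the counts for the 10 genes were near the background. In FPKM, PM2.5 and control libraries did not overlap for 9 of the 10 genes, 5 of them higher and 4 lower with PM2.5, beside 53.6% of all genes, 30.9% higher and 22.7% lower. TXNRD1 and TXNIP had the largest changes of the 10 genes. Fold changes here and below are those of FPKM + 0.5. The median log2 fold change of the 10 genes was 0.19, beside 0.021 for all genes tested. In this bulk RNA, fewer cells with a transcript and less of it per cell cannot be told apart. Levels of the 10 genes in each library show the same division.

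**Figure D1:**
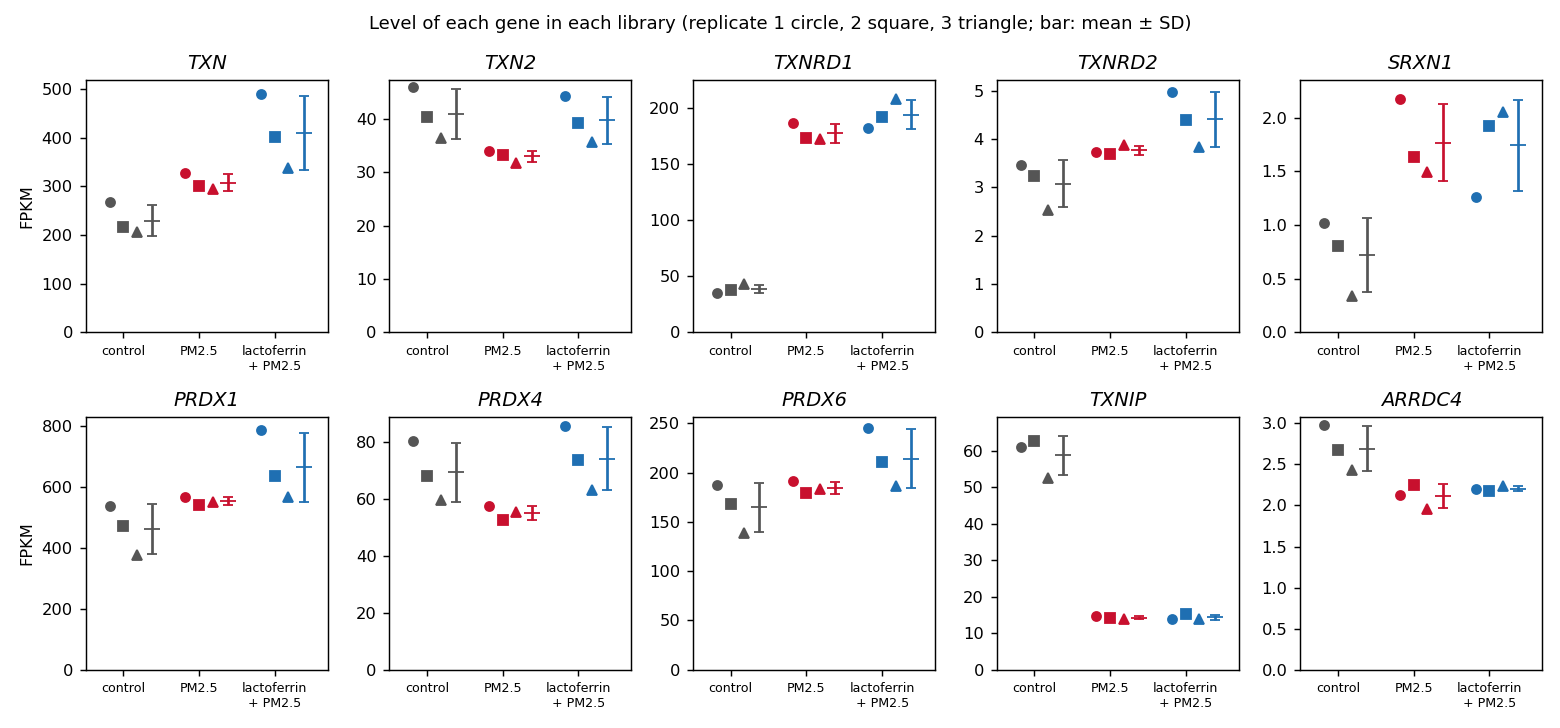
Level of each of the 10 genes (FPKM, vertical axis from 0) in each library of the control, PM2.5 and lactoferrin plus PM2.5 groups; symbols mark the replicate number, and the bar is the mean ± SD of 3 libraries. TXNRD1 was between 35.4 and 43.0 FPKM in control and between 172 and 208 in the exposed libraries, and TXNIP between 52.5 and 62.7 in control and between 13.8 and 15.2 in the exposed libraries.

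The 250 bases before the start of TXNIP, ARRDC4 and TXNRD1 are shown because these genes changed against control and are known targets of the factors named above. SRXN1 meets the same description, but its window is not shown, and it held none of the patterns described below. That window (653201 to 653450) overlaps the annotated gene (646615 to 653370). The windows of TXNIP and ARRDC4 also run into their annotated genes, though less far. The sequences are from RefSeq (GRCh38.p14), which gave 11 windows for 7 of the 10 genes, and PRDX1, PRDX6 and TXN2 had no entry in the table. Each was searched on both strands for TGANNNNGC, the core of the antioxidant response element that NRF2 binds with a small MAF protein, for a pair of E-boxes of the kind that MondoA and MLX bind (CACGNG, any 5 bases, CACGNG), and for the E-box CACGTG. Capitals mark the first and second of these. The windows are chr1:145996580-145996829 on the minus strand for TXNIP, chr15:97960453-97960702 on the plus strand for ARRDC4, and chr12:104215529-104215778 on the plus strand for the outermost start of TXNRD1.
TXNIP: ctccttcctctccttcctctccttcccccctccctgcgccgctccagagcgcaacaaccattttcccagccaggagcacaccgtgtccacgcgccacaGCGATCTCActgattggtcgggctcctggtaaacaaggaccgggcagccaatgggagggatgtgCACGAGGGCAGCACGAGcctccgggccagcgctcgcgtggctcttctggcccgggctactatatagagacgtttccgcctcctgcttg
ARRDC4: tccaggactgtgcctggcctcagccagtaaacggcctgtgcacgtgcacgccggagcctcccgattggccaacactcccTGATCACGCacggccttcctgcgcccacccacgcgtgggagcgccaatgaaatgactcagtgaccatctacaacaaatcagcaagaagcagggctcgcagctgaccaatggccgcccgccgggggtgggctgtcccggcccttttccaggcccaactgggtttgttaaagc
TXNRD1: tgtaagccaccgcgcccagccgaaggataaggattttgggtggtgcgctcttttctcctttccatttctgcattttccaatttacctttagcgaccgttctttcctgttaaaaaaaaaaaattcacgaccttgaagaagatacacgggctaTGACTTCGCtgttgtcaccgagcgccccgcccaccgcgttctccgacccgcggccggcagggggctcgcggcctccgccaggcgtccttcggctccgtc

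In the TXNIP window the paired E-box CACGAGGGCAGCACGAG lay 88 to 72 bases before the start, and the antioxidant response element core lay on the other strand, 152 to 144 bases before it. Such a paired E-box was in 16 of 34943 RefSeq windows of this length (0.0458%), whereas the antioxidant response element core was in 35.1% of them. The ARRDC4 window held the core 171 to 163 bases before the start and a single E-box, left in lower case, at 210 to 205 bases, a motif found in 6.32% of windows. The outermost TXNRD1 window held the core 99 to 91 bases before the start. None of these matches overlapped another. A second TXNRD1 window held the core on each strand, 2 of the TXNRD2 windows held it once each, and the PRDX4 window held an E-box. The TXN and SRXN1 windows, a second TXNIP window and 1 TXNRD2 window held none of the 3 letter patterns, which says only that those letters are not in these 250 bases. Of the windows not shown, those of TXN and of the outermost TXNRD2 start also run into their annotated genes. The PRDX4 window, the second TXNIP and TXNRD1 windows and the inner TXNRD2 windows lie wholly inside their annotated genes.

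TXN, the cytosolic thioredoxin (ENSG00000136810, GRCh38 chromosome 9, 110243811 to 110256640, minus strand), was the second most abundant of the 10 genes per length in every group. Its FPKM was 267, 216 and 206 in the control libraries, 328, 300 and 294 with PM2.5, and 490, 401 and 337 with lactoferrin plus PM2.5. All PM2.5 libraries were above all control libraries, and all pretreated libraries were above all PM2.5 libraries. The difference between PM2.5 and control did not pass the test (log2 fold change 0.40 ± 0.16 SE, adjusted p = 0.0875). Against control, the level in pretreated cells rose (0.80 ± 0.16, adjusted p = 0.00453), and this call held under each of the 22 alternative settings tried.

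TXN2, the mitochondrial thioredoxin (ENSG00000100348, chromosome 22, 36467036 to 36482030, minus strand), was at 45.9, 40.4 and 36.4 FPKM in control, 33.9, 33.2 and 31.8 with PM2.5, and 44.3, 39.2 and 35.7 with lactoferrin plus PM2.5. The PM2.5 libraries were below all libraries of both other groups. The test of PM2.5 against control gave a log2 fold change of -0.33 ± 0.11 and an adjusted p of 0.0514, which just missed the threshold. Pretreated and control libraries overlapped (log2 fold change -0.062 ± 0.11, adjusted p = 0.704).

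The cytosolic and mitochondrial thioredoxins thus lay on different sides of their control level after PM2.5. Within a library, the ratio of TXN to TXN2 FPKM was 5.61 ± 0.236 (SD, n = 3) in control, 9.32 ± 0.320 with PM2.5 and 10.3 ± 0.794 with lactoferrin plus PM2.5. Control ratios reached 5.82 at most and PM2.5 ratios were at least 9.04, so the groups did not overlap. The exact permutation test (two-sided) gave p = 0.1 for PM2.5 against control, the smallest p that 3 against 3 libraries allow, and 0.129 after adjustment over the 9 ratio comparisons made.

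TXNRD1, the cytosolic thioredoxin reductase (ENSG00000198431, chromosome 12, 104215779 to 104350305, plus strand), had the largest increase of the 10 genes. Its FPKM was 35.4, 37.4 and 43.0 in control, 187, 173 and 172 with PM2.5, and 182, 191 and 208 with lactoferrin plus PM2.5, from 3636 to 23305 fragments per library. No exposed library came near the control range. With PM2.5 it rose by a log2 fold change of 2.16 ± 0.11 (4.47-fold, adjusted p = 2.72e-06), and in pretreated cells by 2.29 ± 0.11 against control (4.90-fold). Among the 10 genes it moved from the 7th place per length in control to the 4th in both exposed groups.

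TXNRD2, the mitochondrial reductase (ENSG00000184470, chromosome 22, 19875517 to 19941992, minus strand), was at 3.47, 3.23 and 2.53 FPKM in control, 3.73, 3.70 and 3.87 with PM2.5, and 4.98, 4.40 and 3.84 with lactoferrin plus PM2.5. The control libraries were below all others, but the difference between PM2.5 and control did not pass the test (log2 fold change 0.24 ± 0.12, adjusted p = 0.155). It rose in pretreated cells against control (0.44 ± 0.12, adjusted p = 0.0186), a call lost without control replicate 3 (adjusted p = 0.0573), without lactoferrin replicate 2 (0.0595), with control replicate 3 and lactoferrin replicate 1 both left out (0.0882) and with no filter on low values (0.0533), and kept in 18 of the 22 alternatives.

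The ratio of TXNRD1 to TXNRD2 FPKM was 12.9 ± 3.59 in control, 47.1 ± 2.79 with PM2.5 and 44.7 ± 8.84 with lactoferrin plus PM2.5 (SD, n = 3 each). Control replicate 3 had the highest control ratio, 17.0, and the lowest ratio of any exposed library was 36.6. The exact permutation p was 0.1 for each exposed group against control (0.129 adjusted) and 0.7 for the exposed groups against each other.

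**Figure D2:**
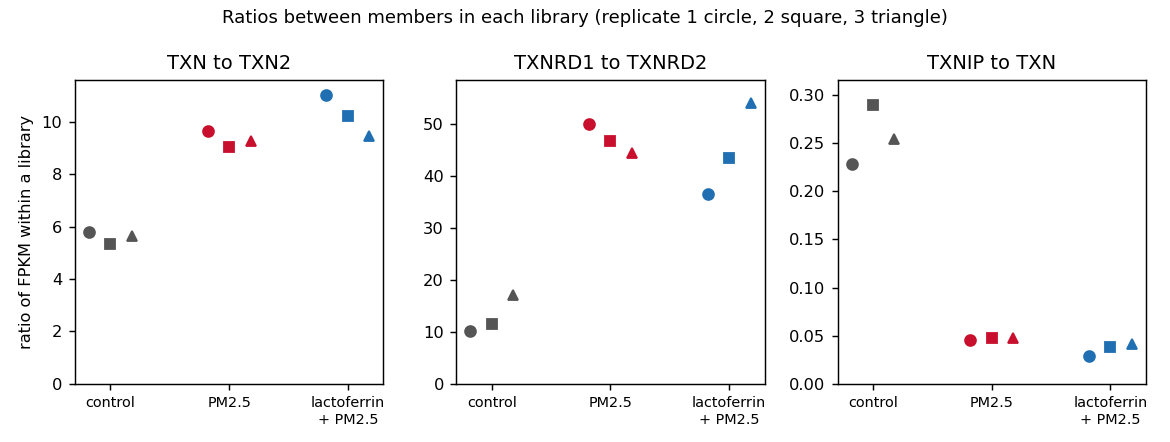
Ratio of FPKM within each library (vertical axes from 0) for TXN to TXN2, TXNRD1 to TXNRD2 and TXNIP to TXN, by group; each point is 1 library and its shape the replicate number. Control and exposed libraries do not overlap in any of the 3 ratios: TXN to TXN2 is at most 5.82 in control and at least 9.04 in exposed cells, and TXNIP to TXN at least 0.228 in control and at most 0.0471 in exposed cells.

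SRXN1, sulfiredoxin, reverses the overoxidation of peroxiredoxins (ENSG00000271303, chromosome 20, 646615 to 653370, minus strand). Its FPKM was 1.02, 0.806 and 0.340 in control, 2.17, 1.63 and 1.49 with PM2.5, and 1.26, 1.92 and 2.05 with lactoferrin plus PM2.5, and it rested on only 16 to 109 fragments per library. All exposed libraries were above all control libraries. It rose with PM2.5 (log2 fold change 0.91 ± 0.22, adjusted p = 0.0121) and in pretreated cells against control (0.89 ± 0.22, adjusted p = 0.0121), and both calls held under each of the 22 alternatives. Of its 2698 exon bases 85.0% are shared on the same strand with the gene AL121758.1, which reached at most 0.281 FPKM, and the sources used here do not say how reads in the shared part were assigned, so its level relative to other genes is uncertain.

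PRDX1, a cytosolic peroxiredoxin (ENSG00000117450, chromosome 1, 45511036 to 45523047, minus strand), was the most abundant of the 10 genes in every group. Its FPKM was 539, 471 and 375 in control, 569, 542 and 550 with PM2.5, and 789, 636 and 568 with lactoferrin plus PM2.5. The control libraries lay below the exposed ones, but the spread within the control and pretreated groups was wide. The log2 fold change with PM2.5 was 0.25 ± 0.16 (adjusted p = 0.263). PRDX1 rose in pretreated cells against control (0.51 ± 0.16, adjusted p = 0.0357), a call kept in 12 of the 22 alternatives. It was lost without lactoferrin replicate 1 (adjusted p = 0.0808) or 2 (0.0855), control replicate 2 (0.0834) or 3 (0.106), or PM2.5 replicate 1 (0.0502), 2 (0.0571) or 3 (0.0553). Of its exon bases 24.9% are shared on the other strand with MMACHC, which reached at most 3.55 FPKM.

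PRDX4, the peroxiredoxin of the endoplasmic reticulum (ENSG00000123131, chromosome X, 23664262 to 23686399, plus strand), was at 80.3, 67.9 and 59.6 FPKM in control, 57.5, 52.5 and 55.2 with PM2.5, and 85.4, 73.5 and 63.2 with lactoferrin plus PM2.5. As for TXN2, the PM2.5 libraries were below all libraries of both other groups. The test of PM2.5 against control did not pass (log2 fold change -0.35 ± 0.14, adjusted p = 0.0850). Pretreated and control libraries overlapped (0.074 ± 0.14, adjusted p = 0.713).

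PRDX6, a peroxiredoxin with a single catalytic cysteine that draws on glutathione (ENSG00000117592, chromosome 1, 173477266 to 173488807, plus strand), was at 188, 168 and 138 FPKM in control, 191, 180 and 183 with PM2.5, and 246, 211 and 186 with lactoferrin plus PM2.5. It was the only one of the 10 genes whose PM2.5 and control libraries overlapped. Its log2 fold change with PM2.5 was 0.15 ± 0.14 (adjusted p = 0.440), and in pretreated cells against control 0.36 ± 0.14 (adjusted p = 0.0713), a difference that passed without lactoferrin replicate 3 (adjusted p = 0.0207).

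TXN, TXN2 and PRDX4 were near the threshold in PM2.5 against control. All 3 passed when only the 6 libraries of this comparison entered the fit (adjusted p = 0.0330, 0.0203 and 0.0326), which raised the count from 4 to 7 of the 10 genes. They also passed when lactoferrin replicate 1 was left out (0.0314, 0.0186 and 0.0357) and when replicate 3 of that group was left out (0.0410, 0.0299 and 0.0424), but not when replicate 2 was (0.138, 0.0750 and 0.115). Over the 22 alternatives TXN passed in 6, TXN2 in 10 and PRDX4 in 8, and the highest adjusted p was 0.229, 0.157 and 0.241. The lactoferrin libraries enter this comparison through the shared estimate of the spread, the filter and the scaling factors.

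TXNIP (ENSG00000265972, chromosome 1, 145992435 to 145996600, minus strand) had the largest decrease of the 10 genes. Its FPKM was 60.9, 62.7 and 52.5 in control, 14.7, 14.2 and 13.8 with PM2.5, and 13.95, 15.2 and 13.97 with lactoferrin plus PM2.5. The exposed libraries lay in a narrow band far below control. With PM2.5 it fell by 2.03 ± 0.082 on the log2 scale (adjusted p = 8.30e-07), to 0.245 of the control level, and in pretreated cells by 2.01 ± 0.082. Both calls held under each of the 22 alternatives, in which the PM2.5 change lay between -2.10 and -1.99. Within a library the ratio of TXNIP to TXN was 0.258 ± 0.0310 in control, 0.0464 ± 0.00122 with PM2.5 and 0.0359 ± 0.00668 with lactoferrin plus PM2.5, with no overlap between any pair of groups (exact permutation p = 0.1 for each pair, 0.129 adjusted).

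ARRDC4, an alpha-arrestin close to TXNIP in sequence (ENSG00000140450, chromosome 15, 97960698 to 97973838, plus strand), was at 2.97, 2.68 and 2.43 FPKM in control, 2.13, 2.25 and 1.96 with PM2.5, and 2.20, 2.18 and 2.24 with lactoferrin plus PM2.5. Exposed libraries were below control libraries, by a far smaller margin than for TXNIP. It fell with PM2.5 (log2 fold change -0.31 ± 0.089, adjusted p = 0.0245), but the call was lost without control replicate 1 (adjusted p = 0.0856) or 2 (0.0588), without PM2.5 replicate 1 (0.0504) or 3 (0.0996), and with no filter on low values (0.0568). The fall in pretreated cells against control (-0.25 ± 0.089, adjusted p = 0.0491) was kept in 7 of the 22 alternatives and was lost on leaving out any 1 of the 9 libraries.

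In control cells the order of the mean levels per length (FPKM) was PRDX1, TXN, PRDX6, PRDX4, TXNIP, TXN2, TXNRD1, TXNRD2, ARRDC4 and SRXN1. Neighbours whose control ranges overlapped were PRDX4 and TXNIP, TXN2 and TXNRD1, and TXNRD2 and ARRDC4. Within every control library, however, PRDX4 was above TXNIP and TXNRD2 was above ARRDC4. TXN2 was above TXNRD1 in replicates 1 and 2 and below it in replicate 3, so the order of this pair is not settled. With PM2.5 the order was PRDX1, TXN, PRDX6, TXNRD1, PRDX4, TXN2, TXNIP, TXNRD2, ARRDC4 and SRXN1, and the overlapping neighbours were PRDX6 with TXNRD1 and ARRDC4 with SRXN1. Within every PM2.5 library PRDX6 was above TXNRD1, whereas ARRDC4 was below SRXN1 in replicate 1 and above it in the others. The order of means with lactoferrin plus PM2.5 was the same as with PM2.5, with PRDX6 and TXNRD1 again overlapping. In that group TXNRD1 was above PRDX6 in replicate 3 and below it in the others. TXNRD1 thus moved above PRDX4, TXNIP and TXN2 in exposed cells, and TXNIP moved below TXN2.

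The comparison of lactoferrin plus PM2.5 with PM2.5 covers the pretreatment together with a shorter time in PM2.5, 18 h against 24 h. None of the 10 genes passed the test in it (limma), beside 0.0484% of all genes tested (7 genes, 0.0208% higher and 0.0277% lower). At an unadjusted p under 0.05 there were 3 of the 10 genes and 1780 of all genes. The log2 fold change was positive for 9 of the 10 genes and for 7269 of all 14454 genes tested. Its median was 0.20 over the 10 genes, beside 0.0014 for all genes tested. Several of the 10 genes shared an order of replicates, described below, so they are not independent of each other. The widest differences were those of PRDX4 (0.42 ± 0.14, adjusted p = 0.350), TXN (0.40 ± 0.16, adjusted p = 0.397) and TXN2 (0.27 ± 0.11, adjusted p = 0.403). In these 3 genes every pretreated library was above every PM2.5 library, and among all genes tested 11.3% were separated in that direction and 9.79% in the other. When libraries were weighted by their agreement with their group, these 3 genes passed (adjusted p = 0.0168, 0.0312 and 0.0407) and 1790 of all genes did. That weighting gave lactoferrin replicate 1 a weight of 0.247 and replicate 2 a weight of 3.57, and was chosen after seeing that the default weighting did not converge.

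The strongly changed genes had narrow intervals in this comparison. For TXNIP the 95% interval of the log2 difference between pretreated and PM2.5 cells was -0.17 to 0.20, against a change of -2.03 from control. For TXNRD1 it was -0.12 to 0.38, against a change of 2.16. The interval of SRXN1 was wide, from -0.52 to 0.49, and does not exclude a sizeable difference in either direction.

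**Figure D3:**
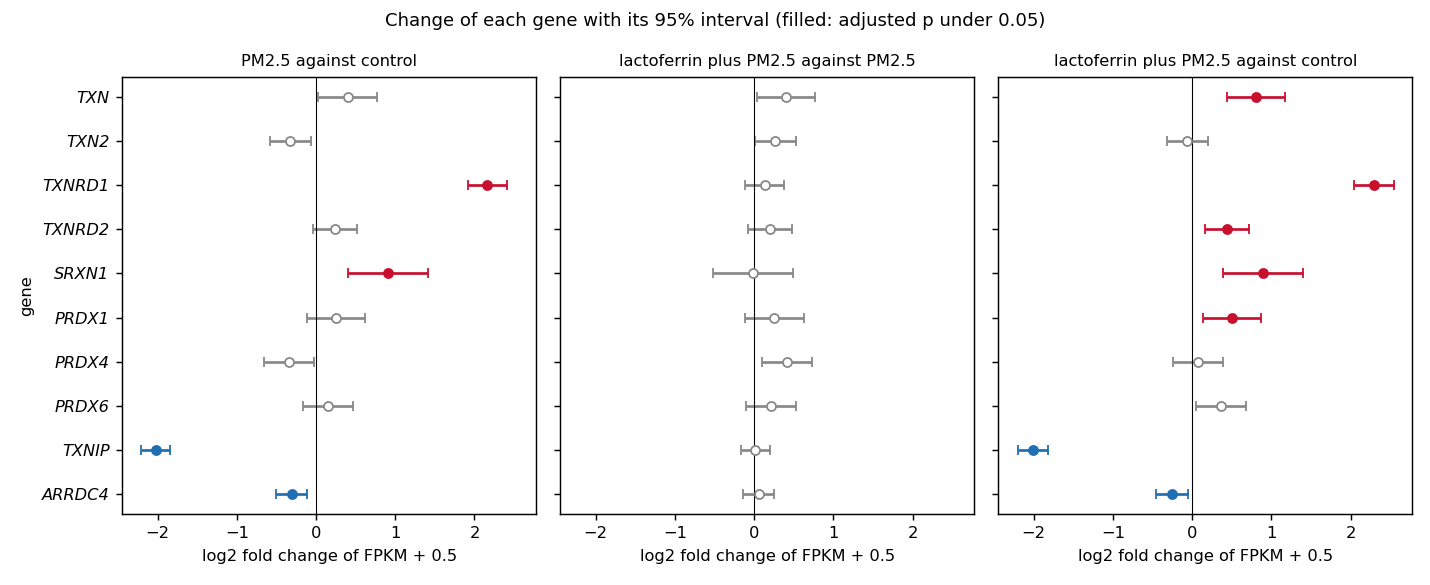
Log2 fold change of FPKM + 0.5 with its 95% interval for each of the 10 genes in the 3 comparisons; filled points passed an adjusted p of 0.05 (limma), red higher and blue lower, and open grey points did not. Against control TXNRD1 lies at 2.16 and 2.29 and TXNIP at -2.03 and -2.01, and no gene is filled between the exposed groups.

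Against control, 5 of the 10 genes rose in pretreated cells (TXN, TXNRD1, TXNRD2, SRXN1 and PRDX1) and 2 fell (TXNIP and ARRDC4), where 38.7% of all genes tested passed, 21.1% higher and 17.6% lower. Pretreated and control libraries did not overlap for the same 7 genes, in the same directions, beside 47.5% of all genes, 26.8% higher and 20.7% lower. This comparison shares its control libraries with that of PM2.5 against control, so the values above stand side by side and are not independent of each other. The count of 7 was 4 without lactoferrin replicate 2 and 4 without control replicate 3.

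The spread among replicates was itself shared by several of the genes. TXN, TXN2, TXNRD2, PRDX1, PRDX4 and PRDX6 each had their highest value in replicate 1 and their lowest in replicate 3, in both the control and the pretreated group, as did 11.8% of all genes tested. TXNRD1 had the opposite arrangement in both groups, and TXNIP neither. This arrangement was noticed in the values and was given no test. After each library was corrected for a trend of its values with transcript length and GC share, the residual SD (log2) went from 0.22 to 0.17 for TXN, from 0.15 to 0.097 for TXN2, from 0.21 to 0.15 for PRDX1, from 0.19 to 0.13 for PRDX4 and from 0.18 to 0.14 for PRDX6. It went from 0.15 to 0.19 for TXNRD2, from 0.082 to 0.10 for TXNIP and from 0.079 to 0.093 for ARRDC4, with a median over all genes going from 0.16 to 0.15. In that fit TXN, TXN2 and PRDX4 passed in PM2.5 against control (adjusted p = 0.0183, 0.00287 and 0.0106).

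Of 23 other peroxiredoxins, reductases and thioredoxin-like proteins, all tested, 6 rose and 4 fell with PM2.5, beside 20.0% and 15.6% of all genes tested. Their median log2 fold change was 0.025, beside 0.021 for all genes tested. PDIA4, a disulfide isomerase of the endoplasmic reticulum, rose from 152 ± 8.02 to 250 ± 14.2 FPKM (SD, n = 3 each; log2 fold change 0.69 ± 0.11). NXN, nucleoredoxin, fell from 29.7 ± 0.210 to 22.3 ± 0.899 FPKM (-0.43 ± 0.068), and TXNDC16 fell from 3.83 ± 0.237 to 2.05 ± 0.402 FPKM (-0.80 ± 0.14). Both directions therefore occurred in this list, at shares of the list not far from those of all genes.

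A further list covered thioredoxin clients, related genes and the repair of oxidised sulfur. Not all of its proteins are reduced or bound by thioredoxin. Of its 13 genes 12 were tested. None rose with PM2.5 and 2 fell (limma), beside 20.0% higher and 15.6% lower among all genes tested. An unadjusted p under 0.05 was found for 4 of the 12, and for 6555 of all 14454 genes tested. PAPSS2, which makes the activated sulfate donor, fell from 27.3 ± 1.81 to 19.9 ± 1.11 FPKM (log2 fold change -0.47 ± 0.069). RRM2, the small subunit of ribonucleotide reductase, fell from 24.9 ± 0.332 to 20.1 ± 0.373 FPKM (-0.33 ± 0.073). PAPSS1 went from 29.1 to 24.4 FPKM (-0.28 ± 0.10, adjusted p = 0.0571).

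Of the 5 genes of the parallel glutathione route, 3 rose with PM2.5 and none fell, where 20.0% of all genes tested rose and 15.6% fell. GSR, glutathione reductase, rose from 36.7 ± 1.76 to 65.4 ± 3.06 FPKM (log2 fold change 0.80 ± 0.082, adjusted p = 0.000116). GLRX3 rose from 26.1 ± 1.37 to 37.8 ± 0.711 FPKM (0.50 ± 0.12). GLRX, glutaredoxin 1, rose from 2.98 ± 0.516 to 4.29 ± 0.267 FPKM (0.45 ± 0.15, adjusted p = 0.0486), a call lost without control replicate 2 or 3, any of the PM2.5 replicates or lactoferrin replicate 2, and kept in 10 of the 22 alternatives.

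Of 7 other alpha-arrestins and MondoA-MLX factors 5 were tested, and with PM2.5 1 rose and 1 fell, beside 20.0% and 15.6% of all genes. ARRDC3, a relative of TXNIP, fell from 16.4 ± 0.573 to 9.17 ± 1.09 FPKM (log2 fold change -0.84 ± 0.090, adjusted p = 0.000153), more than ARRDC4 did. MLX rose from 8.18 ± 1.42 to 12.4 ± 0.607 FPKM (0.56 ± 0.14). MLXIP, which encodes MondoA, went from 15.6 to 13.1 FPKM (-0.26 ± 0.16, adjusted p = 0.235).

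Of 8 genes for NRF2 and its regulators, 2 rose with PM2.5 and none fell, beside the same 20.0% and 15.6% of all genes. Both encode small MAF proteins, the partners of NRF2 on DNA: MAFG rose from 6.49 ± 0.653 to 19.2 ± 1.37 FPKM (log2 fold change 1.47 ± 0.11) and MAFF from 3.91 ± 0.128 to 7.72 ± 0.410 FPKM (0.87 ± 0.077). MAFK, the other small MAF gene of the list, did not rise: it went from 3.94 to 3.76 FPKM (-0.077 ± 0.12, adjusted p = 0.664, limma). NFE2L2, which encodes NRF2, went from 28.98 to 24.0 FPKM (-0.29 ± 0.13, adjusted p = 0.120).

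Of 6 genes for the synthesis of selenoproteins, the class to which the reductases belong, 2 rose with PM2.5 and none fell, again beside 20.0% and 15.6% of all genes. SEPHS2, which makes the selenium donor, rose from 13.7 ± 1.49 to 22.5 ± 0.471 FPKM (log2 fold change 0.68 ± 0.078). EEFSEC, the elongation factor that brings selenocysteine to the ribosome, rose from 4.70 ± 0.760 to 6.51 ± 0.779 FPKM (0.41 ± 0.12, adjusted p = 0.0300), a call lost without control replicate 1 (0.0502) or 3 (0.0862) and without PM2.5 replicate 1 (0.104) or 2 (0.0619). SECISBP2 went from 3.98 to 3.33 FPKM (-0.25 ± 0.10, adjusted p = 0.0897).

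No gene of these 6 lists passed between lactoferrin plus PM2.5 and PM2.5 (limma), and between 1 and 2 genes of each list of 5 to 23 tested genes had an unadjusted p under 0.05, as had 1780 of all 14454 genes. Against control, where 21.1% of all genes rose and 17.6% fell, the pretreated cells had 5 higher and 4 lower genes of the 23 thioredoxin-like proteins, shares close to those of all genes. The counts were 0 and 2 of 12 in the list of clients, related genes and sulfur repair, and 4 and 0 of 5 in the glutathione route. They were 1 and 3 of 5 alpha-arrestins and their factors, 3 and 1 of 8 NRF2 regulators and 3 and 1 of 6 in selenoprotein synthesis.

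**Figure D4:**
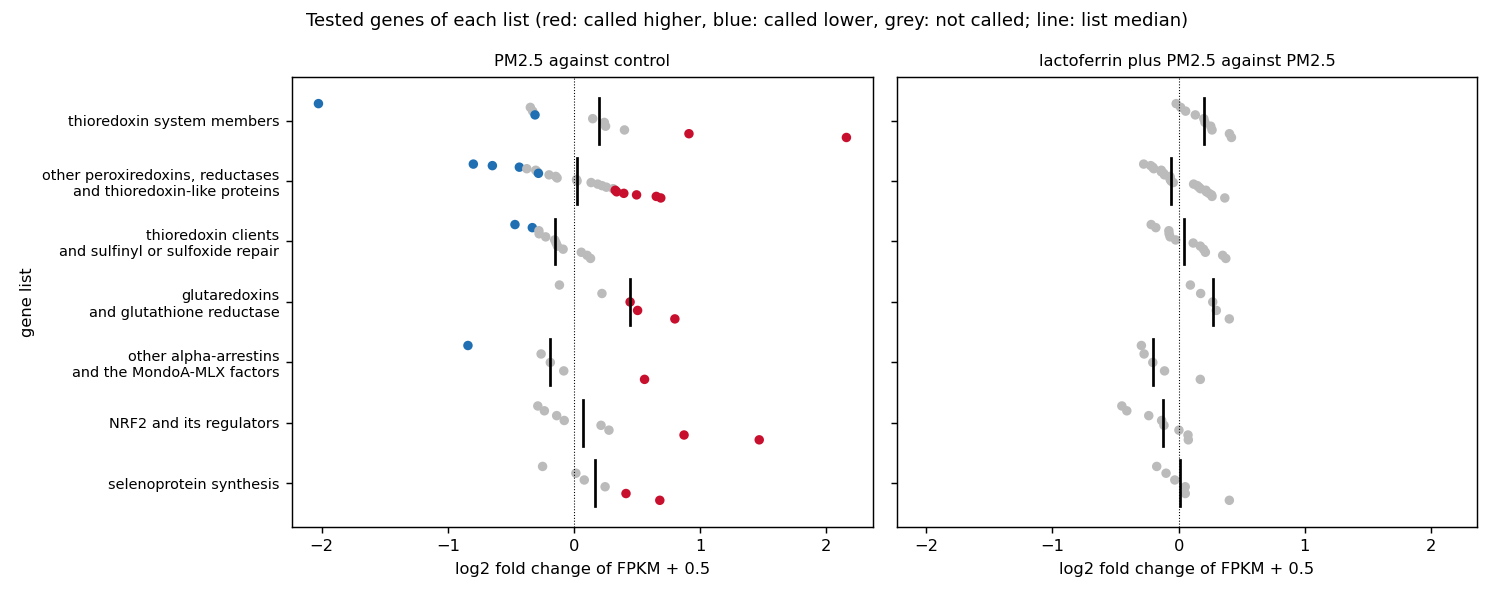
Log2 fold change of FPKM + 0.5 for every tested gene of the 10-gene set and of the 6 other lists (rows), for PM2.5 against control (left) and lactoferrin plus PM2.5 against PM2.5 (right); red and blue points passed an adjusted p of 0.05 (limma), grey points did not, and the vertical line is the list's median. TXNRD1 (2.16), TXNIP (-2.03) and MAFG (1.47) are the points farthest from 0 at left, and no point is coloured at right.

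The genes with the profile most like that of TXNIP were taken as those with the smallest root mean square difference over the 9 libraries, in log2 values centred on each gene's control mean. They were SMAD9 (difference 0.13), GBP2 (0.13), VAV3 (0.15), H2BC4 (0.16) and LINC01111 (0.16), with log2 fold changes between -2.14 and -1.91 with PM2.5. All 5 were under 2 FPKM with PM2.5, such as SMAD9 (2.30 FPKM in control and 0.188 with PM2.5) and GBP2 (3.78 and 0.656), whose ratios of FPKM exceed that of TXNIP, so their likeness holds on the FPKM + 0.5 scale only. For TXNRD1 they were DUSP6 (0.065), MLPH (0.13), GPAT3 (0.13), CYP1A1 (0.14) and ANGPTL2 (0.14), with log2 fold changes between 1.96 and 2.23. CYP1A1, a cytochrome P450 that metabolises polycyclic aromatic hydrocarbons, went from 0.109 to 2.38 FPKM, and at such levels the 0.5 added before the logarithm limits the fold change.

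The 10 annotated pseudogenes of these genes reached at most 0.584 FPKM, so reads assigned to them were few beside those of the parent genes. How reads that match both a gene and its processed copy were treated is not given in the sources used here.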

How the data were processed

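RNA from 9 HK-2 libraries was sequenced, 3 per group, and groups and replicate numbers came from the sample labels. The authors deposited 1 FPKM value per gene and library, a unit read from the values, since no file header names it. Per the submitters' processing notes, which give no order or settings, the work used HISAT2 2.1.0, DESeq2 1.22.1, featureCounts 1.6.0 and Trimmomatic 0.38 beside FastQC, MultiQC and CASAVA, with build GRCh38. The sources used here do not give the annotation release, the strand setting or whether reads or fragments were counted, so genes that overlap on opposite strands cannot be told apart.

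Values multiplied by union exon length (GENCODE v29) gave whole numbers, within 0.05, for 86.0% to 87.2% of the low values per library, from which depth was rebuilt. FPKM were divided by trimmed mean of M values factors (0.948 to 1.039, an own unweighted version), and log2(FPKM + 0.5) was fitted with 1 mean per group over all 9 libraries in limma 3.58.1 under R 4.3.3, with trend and robust moderation and Benjamini-Hochberg adjustment. Fold changes are on that scale and understate those of low genes. Ratios within a library were tested by exact permutation. Replicates differed beyond sampling noise (chi-square per gene 2.43 to 52.9), and each was counted as 1. Checks on simulated data were run. Figures were drawn with matplotlib 3.10.9 (Python 3.11.15).

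Alternatives covered scaling, pseudocount, filters, a replicate block, library weights, limma-voom on rebuilt fragments, the 6 libraries compared alone and each library left out. Chosen after seeing the data were removal of a length and GC trend, omission of control replicate 3 with lactoferrin replicate 1, and the gene-by-gene method for library weights. The 10 genes and the gene lists were chosen with earlier results of these data known. Besides the 10 genes, the text names of each list the 3 genes with the smallest adjusted p in PM2.5 against control, any list gene called between the exposed groups, and the 5 genes most like TXNIP and TXNRD1. MAFK is named as well, because it completes the small MAF genes of its list. Some marker and overlap results are not reported here.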

Additional observations from a re-analysis of the deposited data

How the results depend on the processing

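Over 22 alternatives and 3 comparisons, the 10 genes gave 660 values, of which 581 kept direction and side of the threshold, 31 passed newly, 34 no longer passed and 14 changed sign, all of the last in results that had not passed. Between lactoferrin plus PM2.5 and PM2.5, SRXN1 became 0.0058 with upper-quartile factors, 0.17 with library weights, 0.13 without lactoferrin replicate 1, 0.12 without PM2.5 replicate 1 and 0.13 with control replicate 3 and lactoferrin replicate 1 left out, and its lowest value with a library left out was -0.12. TXNIP became -0.015 without lactoferrin replicate 2, -0.020 without PM2.5 replicate 3 and -0.030 with the length and GC trend removed, and ARRDC4 -0.0012 without PM2.5 replicate 3, with highest values of 0.060 and 0.094 on leaving out a library. Between lactoferrin plus PM2.5 and control, PRDX4 became -0.058 without lactoferrin replicate 1, -0.14 with the pair of libraries left out and -0.056 with the trend removed, and TXN2 0.036 without lactoferrin replicate 3 and 0.0069 without control replicate 1, the other ends of the leave-one-out ranges being 0.21 and -0.17. The log2 ratio of TXNRD1 to TXNRD2 between the exposed groups, -0.091, lay between -0.24 and 0.045 with a library left out, the latter without lactoferrin replicate 1.

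The number of the 10 genes that passed in PM2.5 against control was 7 in place of 4 with library weights, with only the 6 libraries compared and with the trend removed, and between 3 and 7 with a library left out. It was 3 in place of 0 between the exposed groups with library weights, and 4 in place of 7 for lactoferrin plus PM2.5 against control with no filter on low values, and between 4 and 7 with a library left out. All genes that passed between the exposed groups numbered 7, and 21 with the stricter filter, 1790 with library weights, 17 with limma-voom, 4 with only the 6 libraries, 13 with the pair left out, 16 with the trend removed, and between 0 and 9 with a library left out. The default library weights did not converge and gave 6402 genes and 8 of the 10 in that comparison, 8730 and 9 in PM2.5 against control, and 11022 and 8 in the third. The cause was not tested.

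Same-numbered libraries of different groups had correlations of their deviations between -0.068 and 0.18, and differently numbered ones between -0.18 and 0.14. These overlapping ranges do not settle whether the numbers pair the samples. The main fit had no replicate block because the labels do not say that a number marks a shared culture. With a replicate block 7 of the 10 genes passed in PM2.5 against control and 13 genes passed between the exposed groups. SRXN1 rested on as few as 16 fragments in a library, which limits its precision.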
